A study of Mus musculus with 16 samples.

Results

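A set of 10 genes that steer mitochondrial biogenesis and dynamics was followed: the coactivators Ppargc1a and Ppargc1b, the transcription factors Esrra, Nrf1 and Gabpa, the mitochondrial DNA factor Tfam, the fusion genes Mfn1, Mfn2 and Opa1, and the fission gene Dnm1l. They were chosen by name, and all 10 were found among the 35275 genes of the expression table. All 10 also passed the filter of a mean of at least 0.5 FPKM (a fragment count corrected for gene length and library size), which left 11832 genes for testing. The cells were C2C12, a mouse myoblast cell line whose cells fuse to myotubes in low serum. The growth protocol calls them PAX7 negative. Controls were wild-type population 1 and population 2, and the knockout cells (tKO) were clone 1 and clone 2 of a triple knockout, which removes miR-206 together with miR-1a-2 and miR-1a-1. A difference between genotypes is thus a difference between 2 populations and 2 clones. Each of these 4 lines was sampled in growth medium (GM, 20% fetal bovine serum, about 80% confluent). Each was also sampled after 3 days in medium with 2% horse serum (DM3). Every line and stage has replicates 1 and 2, marked BR in the sample titles. They are called culture 1 and culture 2 below, a name that the titles do not give. Controls and tKO at each stage thus make 4 groups, with 4 poly(A) RNA libraries each. The study's title ties the microRNA family to mitochondrial and muscle function, and the comparisons below show where these regulators stood in that setting.

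Depth was 22642563 to 56585952 fragments per library. In GM the summed level of 7 myotube markers ranged from 9.12 to 12.6 FPKM over controls and from 10.8 to 73.1 over tKO libraries. In DM3 it ranged from 852 to 1355 FPKM over controls and from 340 to 1437 over tKO libraries, and 7 of 7 rose in either genotype. The sum of 5 myoblast markers in GM was 59.7 to 77.5 FPKM for controls and 45.6 to 93.3 for tKO. In DM3 it was 315 to 475 and 137 to 378. Within this list, Des in GM averaged 39.5 ± 7.37 FPKM (SD) in controls and 22.1 ± 14.8 in tKO. Cdh15 of the same list averaged 9.79 ± 1.44 FPKM in control GM and 29.7 ± 8.80 in tKO GM. Of these markers, Myod1 had 0 fragments in all 4 control GM libraries, at most 3 in tKO GM and 44 to 288 in control DM3, and Pax7 had at most 6 fragments in any library. The sum of 5 proliferation markers was 325 to 375 FPKM for controls and 265 to 379 for tKO in GM, and 75.9 to 94.0 and 31.3 to 108 in DM3. The sum of 4 fibroblast markers was 5.01 to 6.06 FPKM for controls and 0.989 to 5.07 for tKO in GM, and 28.7 to 37.5 and 6.84 to 16.9 in DM3, mostly from Dcn and Pdgfra. The sum of 5 adipocyte markers, mostly Fabp4, was 1.82 to 5.12 FPKM for controls and 0.811 to 11.5 for tKO in GM, and 0.979 to 3.39 and 0.645 to 3.78 in DM3. Plin1 and Adipoq had at most 5 fragments in any library. The deletion itself was not checked here, because the microRNA genes were not among the rows analysed. Fewer cells of a type and less RNA per cell cannot be told apart in such bulk samples.

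PGC-1α and PGC-1β, the products of Ppargc1a and Ppargc1b, do not bind DNA themselves but are recruited by transcription factors such as ERRα (Esrra), NRF1 and the GABP complex, whose DNA-binding subunit is Gabpa. These factors switch on nuclear genes for the respiratory chain and for Tfam, the protein that packages mitochondrial DNA and starts its transcription. Mitochondria also fuse and divide: the mitofusins Mfn1 and Mfn2 join outer membranes, Opa1 joins inner membranes and shapes cristae, and the dynamin-related GTPase Dnm1l (DRP1) cuts mitochondria apart. In skeletal muscle PGC-1α is best known for its induction by exercise and for driving oxidative metabolism.

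The microRNAs that were deleted share a seed, the bases that pair with target messages. The mature miR-206-3p is shown because its seed, in capitals (bases 2 to 8), defines the target letters searched in the members. It lies on chromosome 1 at 20679055 to 20679076, plus strand, in RefSeq on GRCm38.p6.
mmu-miR-206-3p: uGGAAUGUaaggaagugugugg
The matching letters are ACATTCC, or CATTCCA for a match to bases 2 to 7 followed by A, and ACATTCCA where both hold. They were searched in the longest 3′ UTR that GENCODE release M21 annotates for each gene. None of the 10 members held any of them, in UTRs of 547 (Ppargc1b) to 3930 bases (Ppargc1a). Over 10811 tested genes with a 3′ UTR, 20.1% held at least 1 such site and 4.75% held the 8-base site. Among 608 genes with a UTR within 10% of the length of Ppargc1a's, 41.6% held a site, and among 527 of like length to Ppargc1b's 6.64% did. The absence of a match says only that these letters were not in these UTRs.

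Levels per length differed widely between members. In control GM, Mfn2 stood highest at 36.8 ± 1.09 FPKM (SD, n = 4), followed by Esrra at 33.7 ± 1.66, Dnm1l at 25.9 ± 3.55 and Mfn1 at 15.4 ± 0.443. Nrf1 (13.01 ± 1.14), Tfam (12.3 ± 0.727) and Opa1 (12.1 ± 1.14) came next, with overlapping libraries, and Gabpa followed at 9.20 ± 0.912. The coactivators were lowest, Ppargc1b at 2.02 ± 0.131 and Ppargc1a at 0.390 ± 0.0915. In control DM3, Esrra led at 63.6 ± 4.44 FPKM, more than any library of Mfn2 (27.1 ± 3.12). Dnm1l (15.8 ± 2.32), Mfn1 (13.997 ± 1.41) and Opa1 (13.3 ± 1.02) overlapped each other in DM3, as did Nrf1 (6.76 ± 0.798), Tfam (6.68 ± 1.06) and Gabpa (6.13 ± 1.04). Ppargc1b (2.69 ± 0.702) and Ppargc1a (1.14 ± 0.0774) stayed at the bottom.

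Ppargc1a, the coactivator best known as a master switch of mitochondrial biogenesis (chromosome 5, 51454249 to 51567725, minus strand, mm10), was the member that differed between the knockout clones. Below, the 4 values of a group are always in the order line 1 culture 1, line 1 culture 2, line 2 culture 1, line 2 culture 2. The control GM libraries held 0.372, 0.318, 0.523 and 0.347 FPKM, and the control DM3 libraries 1.23, 1.11, 1.05 and 1.16. Every control DM3 library was above every control GM library, and the mean was 2.92-fold higher. The tKO GM libraries held 0.235, 0.171, 1.81 and 0.833 FPKM, and the tKO DM3 libraries 0.434, 1.28, 3.43 and 2.72. In GM clone 1 lay below all 4 controls and clone 2 above all 4, and in DM3 clone 2 again lay above all controls while clone 1 overlapped them. Clone 2 exceeded clone 1 by 6.53-fold in GM and 3.59-fold in DM3, with no overlap between their libraries at either stage, as for 42.6% of all genes in GM and 37.7% in DM3. Averaged over stages the difference on the log2(FPKM + 1) scale was 1.04 (SE 0.169, limma adjusted p = 0.00464). On fragment numbers with voom, which does not compress low values, it was 2.27 (adjusted p = 0.00346). Control line 2 and line 1 differed by 0.02 (SE 0.169, 95% interval -0.34 to 0.39, limma adjusted p = 0.9999). The Ppargc1a values rested on 25 to 614 fragments, so counting alone gave an error of 20.0% at the lowest library and 4.04% at the highest.

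The change of Ppargc1a over differentiation depended on how the spread was estimated. In controls it was 0.62 on the log2(FPKM + 1) scale (SE 0.300, adjusted p = 0.0817), with the spread shared by all 4 groups. With only the 8 control libraries in the fit the adjusted p was 0.000177, and with voom the change was 1.74 (adjusted p = 0.0337). In tKO it was 0.71 (adjusted p = 0.0489), which passed by a narrow margin and was lost in 21 of 30 alternatives. Each tKO line and culture was higher in DM3 than its counterpart in GM, 4 of 4, but the groups overlapped because the clones stood apart.

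**Figure D1:**
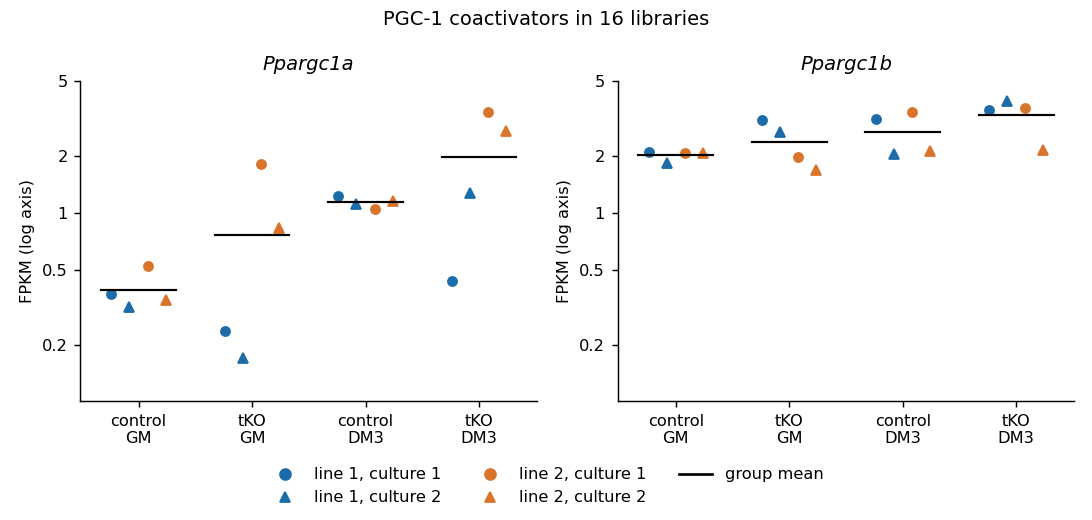
FPKM on a log axis of Ppargc1a (left) and Ppargc1b (right) in each of the 16 libraries by group, with colours for line (for tKO, clone) 1 and 2, shapes for culture, and black bars for group means. For Ppargc1a, tKO clone 2 lies above tKO clone 1 at both stages (1.81 and 0.833 against 0.235 and 0.171 FPKM in GM), while Ppargc1b spans 1.70 to 3.91 FPKM over all libraries.

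Ppargc1b, the related coactivator (chromosome 18, 61298136 to 61400431, minus strand), varied less. The control GM libraries held 2.10, 1.83, 2.08 and 2.08 FPKM, and the tKO GM libraries 3.12, 2.68, 1.99 and 1.70. Here clone 1 was the higher clone, 1.58-fold above clone 2 in GM, the opposite order to Ppargc1a. The difference between clones over both stages was -0.38 (SE 0.162, adjusted p = 0.195) and did not pass the test. The control DM3 libraries held 3.14, 2.04, 3.43 and 2.14 FPKM, and the tKO DM3 libraries 3.50, 3.91, 3.60 and 2.14. In both control lines culture 1 was the higher culture of DM3. Differentiation changed Ppargc1b by 0.27 in controls (adjusted p = 0.185) and 0.35 in tKO (adjusted p = 0.0901), and neither passed, although each of 4 lines and cultures was higher in DM3 in either genotype. The level of Ppargc1b was 5.35 ± 0.917 times that of Ppargc1a in control GM libraries and 2.38 ± 0.681 times in control DM3.

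Esrra, which encodes ERRα, an orphan nuclear receptor that binds with PGC-1 coactivators at genes of oxidative metabolism (chromosome 19, 6910977 to 6921813, minus strand), rose over differentiation in both genotypes. Control GM libraries held 32.3, 35.1, 32.2 and 35.2 FPKM, and control DM3 libraries 64.0, 66.3, 66.7 and 57.1. The control rise was 1.88-fold (log2 change 0.89, SE 0.0951, adjusted p = 8.2e-07). tKO GM libraries held 36.3, 31.9, 33.8 and 34.6 FPKM, and tKO DM3 libraries 62.4, 55.4, 53.8 and 46.9. The tKO rise was 1.60-fold (0.66, SE 0.0951, adjusted p = 1.85e-05), and stages did not overlap in either genotype. Both calls held in all 31 alternatives. In DM3 the tKO level was lower by 0.22 (SE 0.0951), a difference with an unadjusted p of 0.0341 and an adjusted p of 0.248. It was -0.17 within culture 1 and -0.27 within culture 2, where the same difference in GM was 0.11 and -0.08. The difference between the rises, tKO minus control, was -0.24 (SE 0.134, adjusted p = 0.543). Esrra shares 73 exonic bases with Trmt112 on the opposite strand, and strand use in counting is not given in the sources used here. Trmt112 was at 32.9 FPKM in control GM and 28.3 in control DM3 (-0.22, adjusted p = 0.343). In tKO it fell from 38.1 FPKM in GM to 24.2 in DM3 (-0.65, adjusted p = 0.00798), the opposite direction to Esrra.

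Nrf1, a transcription factor of nuclear respiratory genes (chromosome 6, 30047988 to 30153458, plus strand), fell to about the same level in both genotypes. The control GM libraries held 13.3, 13.1, 14.2 and 11.5 FPKM, and the control DM3 libraries 7.26, 5.92, 7.60 and 6.26. The tKO GM libraries held 16.4, 9.68, 14.9 and 9.84 FPKM, and the tKO DM3 libraries 5.59, 6.52, 7.54 and 6.40. Within tKO GM the culture 1 libraries were the high ones in both clones. The fall was by 0.85 in controls (SE 0.153, adjusted p = 0.00015) and by 0.84 in tKO (adjusted p = 0.000179), without overlap between stages. The level of Esrra over that of Nrf1 was 2.61 ± 0.346 in control GM and 9.48 ± 1.16 in control DM3, and 2.82 ± 0.676 and 8.53 ± 1.86 in tKO.

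Gabpa, the DNA-binding subunit of the ETS-family complex GABP (chromosome 16, 84834925 to 84863779, plus strand), also fell. Control GM libraries held 9.24, 8.01, 9.34 and 10.2 FPKM, and control DM3 libraries 5.39, 6.58, 5.17 and 7.38. tKO GM libraries held 8.82, 7.97, 9.64 and 8.34 FPKM, and tKO DM3 libraries 3.19, 6.61, 5.25 and 7.27. In every line culture 2 was the higher culture of DM3. The fall was by 0.52 in controls (SE 0.174, adjusted p = 0.0155) and by 0.60 in tKO (adjusted p = 0.00663). The control call did not hold under median-of-ratios scaling (-0.34, adjusted p = 0.0560), nor without control line 1 (-0.58, adjusted p = 0.121) or line 2 (-0.46, adjusted p = 0.192). Gabpa shares 397 exonic bases with Atp5j on the opposite strand. Atp5j rose in controls from 108 to 140 FPKM (0.37, limma adjusted p = 0.0380) while Gabpa fell. In tKO the change of Atp5j was 0.29 (adjusted p = 0.0961) and did not pass. Over all libraries Atp5j averaged 122 FPKM, beside 7.40 for Gabpa. How many fragments of Gabpa came from the shared bases was not tested.

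Tfam, the packaging and transcription factor of mitochondrial DNA (chromosome 10, 71225464 to 71238280, minus strand), fell with Nrf1 and Gabpa. The control GM libraries held 11.5, 13.2, 11.9 and 12.5 FPKM, and the control DM3 libraries 5.98, 6.61, 5.93 and 8.20. The tKO GM libraries held 13.5, 15.2, 11.8 and 13.98 FPKM, and the tKO DM3 libraries 6.23, 8.17, 5.23 and 8.16. Stages did not overlap in either genotype. The fall was by 0.80 in controls (SE 0.135, adjusted p = 9.13e-05) and by 0.89 in tKO (adjusted p = 2.91e-05). The calls for Nrf1 and Tfam held in all 31 alternatives in both genotypes.

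Promoters were read from RefSeq (GRCm38.p6, 250 bases before to 50 after the start site), which gave 13 promoters for 9 of the 10 members. Ppargc1b was not matched. Both strands were searched for the NRF1 core CGCANGCG, the GABPA and ETS letters CCGGAAG, the ESRRA core AAGGTCA, the cAMP response element TGACGTCA and the E box CAGCTG. No searched motif contains another. Of 32851 promoters of the same length, 8.21% held the NRF1 core, 8.86% the ETS letters, 4.72% the ESRRA core, 1.79% the cAMP response element and 16.3% the E box. Among the members, Nrf1, Opa1, Gabpa and Esrra held the NRF1 core, and Mfn1, Tfam, Dnm1l and Gabpa held the ETS letters. A member was counted if any of its promoters held the motif, so these are not shares of promoters. Nrf1 and Dnm1l each also have a promoter that held none of the searched motifs. Dnm1l and Esrra held the E box, and neither the ESRRA core nor the cAMP response element was found in any of the 13. The promoters of Tfam, Gabpa and Esrra are shown as examples from members that fell (Tfam and Gabpa) and rose (Esrra) over differentiation. The same letters were held by Opa1 (NRF1 core) and Mfn1 (ETS letters), which did not pass that test in the main fit. Whether the letters bear on any change was not tested. NRF1 cores and ETS letters are in capitals, and all 3 run 5′ to 3′ on the gene's strand.
Tfam, chr10:71237995-71238294, minus strand: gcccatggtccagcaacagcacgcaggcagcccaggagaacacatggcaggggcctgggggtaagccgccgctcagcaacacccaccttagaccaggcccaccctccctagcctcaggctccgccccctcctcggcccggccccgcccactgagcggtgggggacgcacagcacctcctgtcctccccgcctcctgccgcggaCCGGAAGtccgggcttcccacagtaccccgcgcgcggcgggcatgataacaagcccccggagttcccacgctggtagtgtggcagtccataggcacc
Gabpa, chr16:84834874-84835173, plus strand: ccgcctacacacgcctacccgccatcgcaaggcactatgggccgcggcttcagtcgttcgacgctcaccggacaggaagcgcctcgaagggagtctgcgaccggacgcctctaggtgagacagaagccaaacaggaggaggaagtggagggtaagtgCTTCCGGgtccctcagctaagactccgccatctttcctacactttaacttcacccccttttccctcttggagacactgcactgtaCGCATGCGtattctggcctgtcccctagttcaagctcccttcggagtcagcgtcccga
Esrra, chr19:6921759-6922058, minus strand: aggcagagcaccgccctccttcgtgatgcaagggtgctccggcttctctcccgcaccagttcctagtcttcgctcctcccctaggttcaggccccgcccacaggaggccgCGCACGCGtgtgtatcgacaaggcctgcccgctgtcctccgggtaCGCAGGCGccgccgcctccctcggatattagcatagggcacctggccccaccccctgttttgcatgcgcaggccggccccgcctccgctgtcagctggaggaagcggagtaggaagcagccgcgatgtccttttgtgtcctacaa
With the start site counted as 0, the ETS letters of Tfam span -47 to -41. Gabpa carries ETS letters on the other strand at -93 to -87 and an NRF1 core at -8 to -1. Esrra carries NRF1 cores at -140 to -133 and at -95 to -88. A match is only a description of the letters.

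Of the outer membrane fusion genes, Mfn2 fell and Mfn1 (chromosome 3, 32529465 to 32579239, plus strand) did not pass the test. Mfn2 (chromosome 4, 147873599 to 147904704, minus strand) also tethers mitochondria to the endoplasmic reticulum. Its control GM libraries held 38.0, 37.2, 36.6 and 35.4 FPKM, and its control DM3 libraries 30.3, 23.1, 28.7 and 26.4. tKO GM libraries held 43.9, 54.6, 36.3 and 38.4 FPKM, and tKO DM3 libraries 25.8, 31.2, 27.5 and 26.1. The tKO GM mean was raised by clone 1, which lay above all controls, while clone 2 overlapped them. The fall over differentiation was by 0.43 in controls (SE 0.121, adjusted p = 0.00536) and by 0.62 in tKO (adjusted p = 0.000336), without overlap. The control call was lost with median-of-ratios scaling (-0.23, adjusted p = 0.120) and voom (-0.26, adjusted p = 0.0901). It was also lost without control line 1 (adjusted p = 0.136) or line 2 (adjusted p = 0.0717).

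Mfn1 held 15.9, 15.7, 15.3 and 14.9 FPKM in control GM and 13.2, 13.99, 12.8 and 16.0 in control DM3. In tKO it held 15.3, 14.98, 14.4 and 14.3 FPKM in GM and 11.4, 15.7, 11.5 and 16.7 in DM3. The culture 2 libraries were the higher ones of DM3 in all 4 lines. Differentiation changed Mfn1 by -0.14 in controls (95% interval -0.39 to 0.11) and by -0.10 in tKO (-0.35 to 0.15). The level of Mfn2 over that of Mfn1 was 2.38 ± 0.0141 in control GM, with almost no spread, and 1.96 ± 0.356 in control DM3. In tKO it was 2.93 ± 0.497 in GM and 2.04 ± 0.363 in DM3.

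Opa1, the inner membrane fusion GTPase (chromosome 16, 29579334 to 29654884, plus strand), did not pass the test over differentiation in either genotype. It held 12.6, 10.98, 11.3 and 13.4 FPKM in control GM and 14.6, 12.1, 13.5 and 13.1 in control DM3. In tKO it held 14.3, 15.6, 13.5 and 13.6 FPKM in GM and 10.1, 17.4, 14.1 and 15.3 in DM3. The change was 0.13 in controls (adjusted p = 0.398) and -0.03 in tKO (adjusted p = 0.875). The scalings that centre the libraries on a typical gene moved the control change to 0.33, with an adjusted p of 0.0203 by median-of-ratios and 0.0291 by voom. In GM every tKO library lay above every control library, a difference of 0.23 (95% interval -0.05 to 0.51, adjusted p = 0.398).

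Dnm1l, the GTPase that divides mitochondria (chromosome 16, 16312235 to 16359030, minus strand), fell over differentiation and varied widely between the tKO DM3 libraries, with an SD of 37.8% of the mean. Control GM libraries held 25.6, 23.1, 23.8 and 30.9 FPKM, and control DM3 libraries 18.9, 13.6, 16.4 and 14.5. tKO GM libraries held 34.8, 30.9, 31.6 and 29.6 FPKM, and tKO DM3 libraries 10.4, 29.0, 20.2 and 20.9. The fall was by 0.68 in controls (SE 0.208, adjusted p = 0.01004) and by 0.71 in tKO (adjusted p = 0.00724), with no overlap of stages. Without control line 1 or control line 2 the control call was lost. In DM3 the tKO minus control difference was 0.26 (95% interval -0.19 to 0.70, adjusted p = 0.577). It was -0.26 within culture 1 and 0.77 within culture 2. The library tKO DM3 clone 1 culture 1, at 10.4 FPKM, was the lowest of all 16, and without it the DM3 difference passed (adjusted p = 0.0374). Leaving out the lowest library of the higher group can only raise the difference, so this pass is no support for it. The same library was also the lowest of all 16 for Nrf1 (5.59 FPKM), Gabpa (3.19), Mfn1 (11.4) and Opa1 (10.1). An antisense gene, Gm49521, shares 243 exonic bases with Dnm1l.

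**Figure D2:**
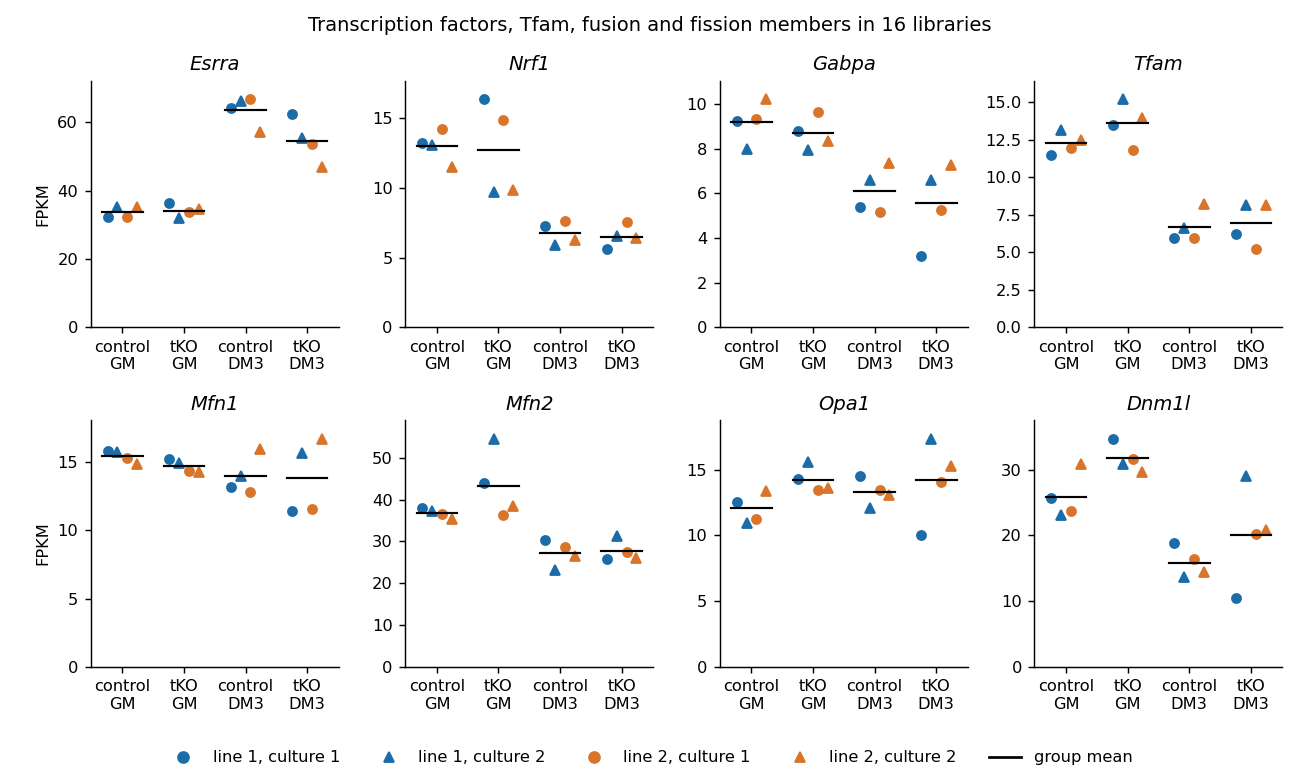
FPKM of 8 members in each of the 16 libraries by group, on axes that start at 0, with colours for line (for tKO, clone) 1 and 2, shapes for culture, and black bars for group means. Esrra is higher in DM3 (46.9 to 66.7) than in GM (31.9 to 36.3), Nrf1, Gabpa, Tfam, Mfn2 and Dnm1l are lower, and Mfn1 and Opa1 overlap between stages.

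Over differentiation, 6 of the 10 members passed the test in controls and 7 in tKO. In controls Esrra was higher and Nrf1, Gabpa, Tfam, Mfn2 and Dnm1l were lower, that is 1 higher and 5 lower, where 23.2% of all tested genes were called higher and 38.3% lower. In tKO the same 5 were lower and Esrra and Ppargc1a were higher, 2 and 5, where 24.9% of all genes were called higher and 36.0% lower. Such counts are near the background, since most genes moved. The stages did not overlap for 7 members in controls (64.4% of all genes) and 6 in tKO (49.1%). The median change of the members was -0.29 in controls and -0.35 in tKO, beside -0.15 and -0.12 over all tested genes. Median-of-ratios scaling moved the median of all genes to 0.01 in both genotypes. It also evened the calls over all genes, from 2743 higher and 4529 lower to 3648 and 3615 in controls, and from 2951 and 4257 to 3638 and 3537 in tKO, and the falls of Nrf1 and Tfam and the rise of Esrra passed under it too. In the same comparison 5 of 5 proliferation markers fell and 7 of 7 myotube markers rose in either genotype, and the fibroblast marker Dcn rose by 3.33 in controls and 2.04 in tKO. Their part in the members' changes was not tested. Both differentiation contrasts rest on separate libraries. The difference between them, the genotype by stage term, passed for none of the members and for 0.254% of all genes, and no member had an unadjusted p under 0.05.

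**Figure D3:**
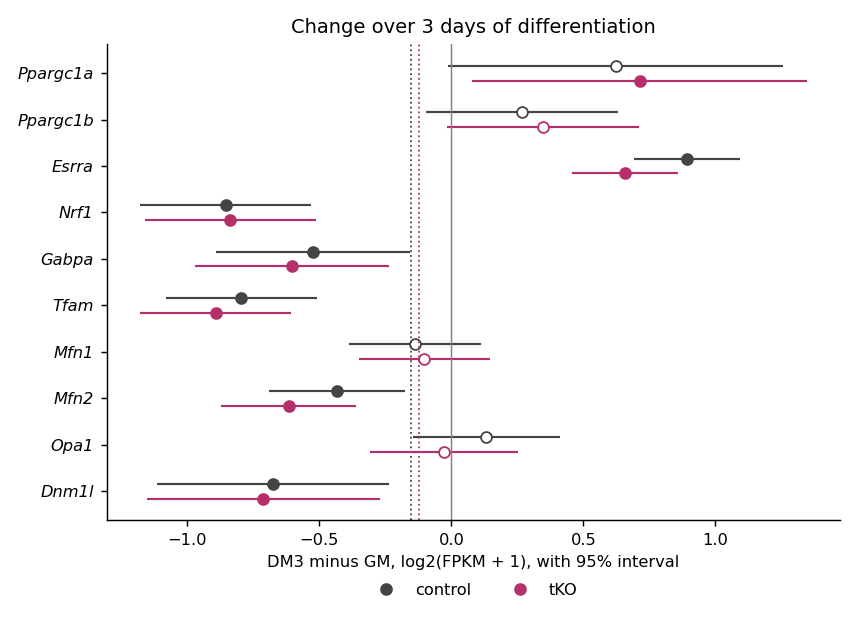
DM3 minus GM on the log2(FPKM + 1) scale for each member in controls (grey) and tKO (magenta), with 95% intervals from limma, filled points where the adjusted p is under 0.05 and dotted lines at the median of all tested genes. Esrra lies to the right (0.89 and 0.66), Nrf1 and Tfam lie between -0.80 and -0.89, and the intervals of Mfn1 and Opa1 span 0.

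Between genotypes, no member passed the test at either stage. In GM 0 of 10 members were called by limma, none had an unadjusted p under 0.05, and voom also called 0, where 2.06% of all tested genes were called. In DM3 0 of 10 were called by limma and by voom, with Esrra alone at an unadjusted p under 0.05, where 3.38% of all genes were called. A miss does not show equal levels, so the intervals matter. The narrowest was that of Esrra, -0.18 to 0.22 in GM and -0.42 to -0.02 in DM3. The widest was that of Ppargc1a, -0.38 to 0.89 in GM and -0.29 to 0.98 in DM3. Mfn2 differed by 0.21 in GM (-0.04 to 0.47) and 0.03 in DM3 (-0.23 to 0.28), and Dnm1l by 0.29 in GM (-0.15 to 0.73). Tfam differed by 0.14 in GM (-0.15 to 0.42) and 0.04 in DM3 (-0.25 to 0.33), and Nrf1 by -0.06 (-0.39 to 0.26) and -0.05 (-0.37 to 0.28). The genotypes did not overlap for 1 member in GM, Opa1 (14% of all genes), and for none in DM3 (8.52%). Among the markers, Cdh15 was the 1 called of 4 tested myoblast genes in GM, higher in tKO (1.47, limma adjusted p = 0.000589). The median change of these 4 was -0.19, and Des averaged 39.5 FPKM in control GM and 22.1 in tKO GM. Des was not called between genotypes, but over both stages it was lower in tKO clone 2 than in clone 1 (-1.53, limma adjusted p = 0.00122). Of the fibroblast list Pdgfra was lower in tKO GM (-1.27, adjusted p = 0.00477), at a mean of 0.778 FPKM beside 3.23 in controls. Dcn was lower in tKO DM3 (-1.65, adjusted p = 0.0145). The part of these markers in the members' values was not tested. Without tKO clone 1, that is with clone 2 against both controls, Ppargc1a passed in DM3 (adjusted p = 0.00561). Clone 1 was the lower clone, so leaving it out raises the difference by itself. The pass describes clone 2 only.

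**Figure D4:**
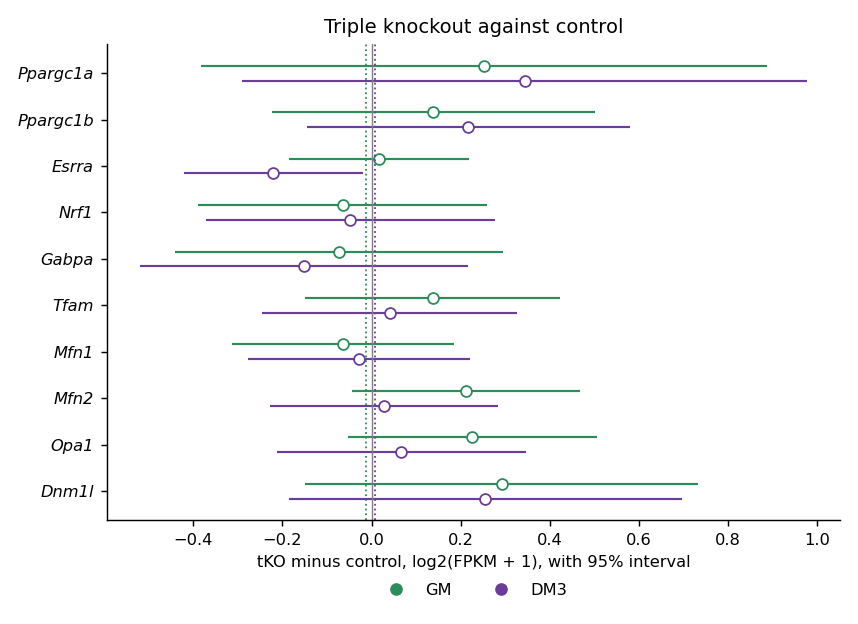
tKO minus control on the log2(FPKM + 1) scale for each member in GM (green) and DM3 (purple), with 95% intervals from limma, open points where the adjusted p is 0.05 or more and dotted lines at the median of all tested genes. All 20 points are open, and Ppargc1a has the widest intervals (-0.38 to 0.89 in GM).

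Of the line comparisons, 1 of 10 members differed between tKO clones, Ppargc1a, where 5.41% of all genes were called. No member was called between the control lines, nor was any other gene (0% by limma and by voom, with 42 genes at an unadjusted p under 0.05 by limma). With 2 libraries a line, the libraries of line 1 and line 2 often do not overlap. In tKO GM this held for 5 members, Ppargc1a, Mfn2 (49.3 in clone 1 and 37.3 FPKM in clone 2), Opa1 (14.98 and 13.5), Mfn1 (15.1 and 14.3) and Ppargc1b (2.90 and 1.84), and for 42.6% of all genes. In control GM it held for 3 members, Gabpa, Mfn1 and Mfn2, and for 19.6% of all genes. In DM3 it held for Ppargc1a and Esrra in tKO (37.7% of all genes) and for none in controls (19.7%). Such counts are near the background, and of these members Ppargc1a alone passed the test.

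In DM3 3 of 10 members differed between culture numbers. Culture 2 was above culture 1, over both genotypes, for Gabpa by 0.49 (SE 0.124, adjusted p = 0.0290), Tfam by 0.36 (SE 0.0929, adjusted p = 0.0307) and Mfn1 by 0.32 (SE 0.0764, adjusted p = 0.0231), where 12% of all genes were called. Of these 3 members, Gabpa alone passed with median-of-ratios scaling (1 call) and with voom (1 call). The summed myotube markers moved with culture in tKO DM3, 1393 and 1437 FPKM in culture 1 against 340 and 479 in culture 2. In control DM3 they were 1101 and 852 FPKM in culture 1 and 1355 and 901 in culture 2. The summed proliferation markers were 31.3 and 108 FPKM in tKO DM3 culture 1, and 55.2 and 79.5 in culture 2. In control DM3 they were 94.0 and 84.3 FPKM in culture 1, and 75.9 and 80.1 in culture 2. The part of these differences in the members' values was not tested.

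Across the 16 libraries the members' profiles followed stage, so correlations are given as a description. Tfam was most like Mfn2 (Pearson's r = 0.853 of log2(FPKM + 1)) and least like Esrra (r = -0.926). Gabpa (0.811) and Nrf1 (0.774) were most like Tfam, and Dnm1l was most like Mfn2 (0.801). Ppargc1a had no close match among members, the nearest being Esrra at 0.451. In the whole table, Esrra was most like Coq9 (0.984), an accessory factor of coenzyme Q synthesis, Arl6ip5 (0.980) and Atp2a1 (0.977), the fast-twitch calcium pump of the sarcoplasmic reticulum. Tfam was most like Dgcr8 (0.990), a partner of Drosha in microRNA processing, 2810408M09Rik (0.990) and Naa40 (0.989), an N-terminal acetyltransferase of histones. Ppargc1a was most like Stard8 (0.905), Myo18b (0.8998) and Wnt10a (0.898).

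Other genes of the pathway were counted by list, each against the share of all genes given above. Of 20 tested genes that copy, transcribe or handle mitochondrial nucleic acids, 14 fell and 2 rose in controls, and 14 fell and 2 rose in tKO (10 and 3 in either genotype with median-of-ratios scaling). Their median change was -0.47 in controls and -0.40 in tKO. Lrpprc, which stabilises mitochondrial messages, was at 28.6 ± 1.30 FPKM in control GM and 11.2 ± 2.41 in control DM3 (log2 change -1.30, adjusted p = 2.26e-05). Fastkd2, an RNA-binding protein of mitochondrial ribosome assembly, changed by -1.28 in controls and -1.60 in tKO. The matrix protease Lonp1 rose, from 81.3 ± 7.06 to 136 ± 34.1 FPKM in controls (0.71, adjusted p = 0.00306) and by 1.10 in tKO. Between genotypes in DM3 1 of the 20 was called, where 3.38% of all tested genes were. It was Tk2, the mitochondrial thymidine kinase, higher in tKO by 0.37 (adjusted p = 0.0462).

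Of 26 coactivators, partners and upstream regulators, 6 rose and 11 fell in controls, and 4 rose and 11 fell in tKO. With median-of-ratios scaling 6 rose and 7 fell in controls, and 7 rose and 8 fell in tKO. Gabpb2, a partner subunit of Gabpa, fell from 10.8 ± 0.815 to 1.80 ± 0.365 FPKM in controls (-2.08, adjusted p = 1.51e-07), and Hcfc1, a transcriptional cofactor, changed by -1.45. In tKO the largest falls were those of Pprc1, a PGC-1-related coactivator (-1.51), and Kat2a, an acetyltransferase of PGC-1α (-1.42). Prkaa2, a catalytic subunit of the energy sensor AMPK, rose by 1.11 in controls, from a mean of 0.466 to 2.17 FPKM. In tKO it rose by 0.64, from 0.532 to 1.42 FPKM. Sirt3, a mitochondrial deacetylase, rose by 0.88 in controls. In GM 1 of the 26 differed between genotypes: Rxra, a nuclear receptor partner, was at 13.1 ± 0.889 FPKM in control and 8.39 ± 2.04 in tKO (-0.61, adjusted p = 0.0289). In DM3 it was Prkab1, an AMPK subunit, lower in tKO by 0.45 (adjusted p = 0.0174).

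Of 10 fission factors other than Dnm1l, 4 rose and 2 fell in controls, and 3 rose and 1 fell in tKO (6 and 1, and 5 and 1, with median-of-ratios scaling). Dnm2, a general dynamin, rose by 0.49 in controls and 0.65 in tKO, and Mtfr1l by 0.64 and 0.61, while Mtfr2 fell by 1.01 and by 1.45. Of 15 fusion factors and Opa1 proteases, 2 rose and 6 fell in controls, and 1 rose and 6 fell in tKO. Median-of-ratios scaling turned this to 6 rising and 4 falling in controls, and 3 and 4 in tKO. Phb, a prohibitin that scaffolds the inner membrane, fell by 1.05 in controls and by 1.21 in tKO, and Parl, an inner membrane protease, fell by 0.89 in tKO. In DM3 1 of the 15 was called between genotypes, the mitochondrial ubiquitin ligase gene March5 (listed under a date in the deposited table and matched by gene ID), lower in tKO by 0.36 (adjusted p = 0.0279, and 0.0577 with median-of-ratios scaling). Of 17 respiratory and metabolic targets, 9 rose and 2 fell in controls, and 10 rose and 2 fell in tKO (12 and 1, and 10 and 2, with median-of-ratios scaling). The muscle form Cox6a2 rose by 2.44 in controls, from a mean of 0.266 to 5.85 FPKM. In tKO it rose by 3.37, from 0.597 to 17.6 ± 12.7 FPKM. The log2(FPKM + 1) scale compresses such low levels. Cox7a1, another muscle form, rose by 1.66 in controls. Idh3a fell by 0.52 and by 0.90 and Cycs, cytochrome c, fell by 0.39 and by 0.60. The control call of Cycs was lost with median-of-ratios scaling (-0.18, adjusted p = 0.280). No gene of these 17 was called between genotypes at either stage.

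**Figure D5:**
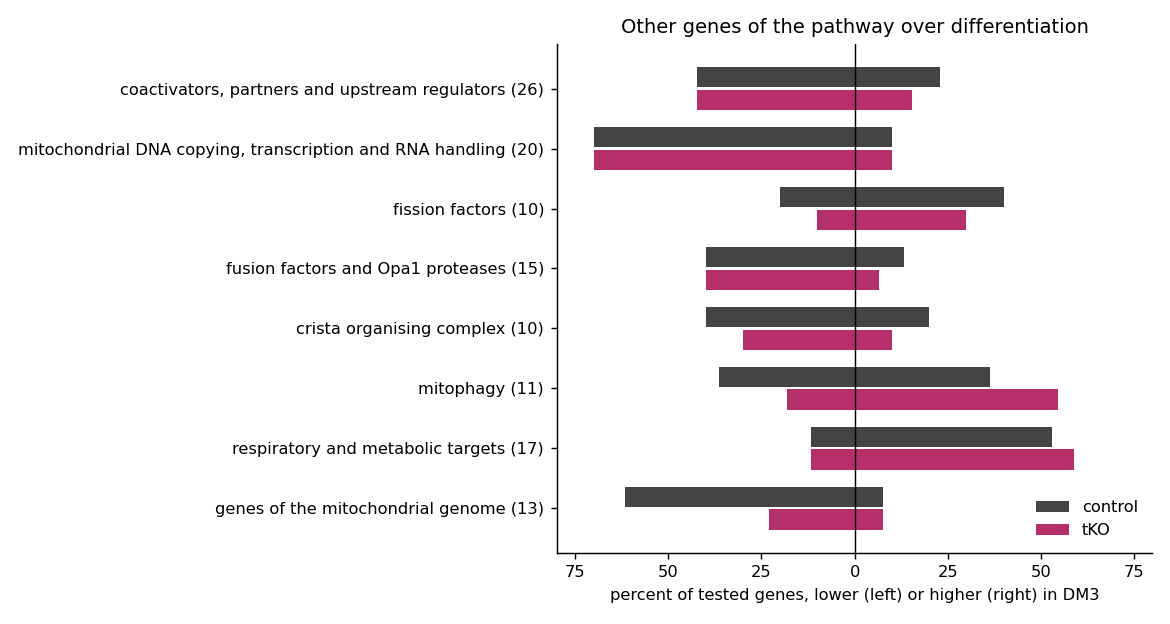
Percent of the tested genes of each list (number in brackets) called lower (bars to the left) or higher (bars to the right) in DM3 than in GM, in controls (grey) and tKO (magenta). Of the 20 genes for mitochondrial nucleic acids 14 are called lower in either genotype, whereas of the 17 respiratory and metabolic targets 9 and 10 are called higher.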

How the data were processed

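Poly(A) RNA-seq of 16 C2C12 libraries was deposited by the authors as 1 table of FPKM values per gene and library, not pooled. The submitters' processing notes name STAR, DESeq and build mm10; versions, annotation and strand use are not given in the sources used here. FPKM times gene length gave whole fragments for 100% of values (tolerance 0.01), from which depth and the alternative voom test were taken.

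Values were tested as log2(FPKM + 1), in 1 group-means model of all 16 libraries, for genes with a mean of at least 0.5 FPKM, with limma 3.58.1 (trend and robust moderation) in R 4.3.3 and Benjamini-Hochberg adjustment over all 11832 genes. A gene was called at an adjusted p under 0.05. Clones, control lines and cultures were compared in models of cell means. The procedure was tested on simulated data that held no differences between lines or cultures, so that test does not cover such differences. Voom used library sizes scaled by the trimmed mean of M values (TMM). Groups come from sample titles. No label says that cultures were separate platings, so p-values measure the spread between these libraries.

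The members and the gene lists were chosen with earlier results of these data known. All members are named, and of each list the 2 genes with the largest and the 2 with the smallest change among those called in a contrast, with some left out. Likeness is given for each member's nearest member and, for Ppargc1a, Esrra and Tfam, the 3 most alike genes. Intervals and fragment errors cover counting or library spread only. Alternatives were pseudocount 0.1, no filter or 5 FPKM, TPM and median-of-ratios scaling, no trend or robust moderation, fewer libraries, line averages, replicate blocks, voom, and leaving out each library or line. Python 3.11.15, numpy 2.4.6, pandas 2.3.3, scipy 1.17.1 and matplotlib 3.10.9 were used.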

Additional observations from a re-analysis of the deposited data

Results flagged for a closer look

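In 40 groups of 4 libraries (10 members in 4 groups), 1 library stood far from the other 3. Ppargc1b in control GM was at 1.83 FPKM in line 1 culture 2 and between 2.08 and 2.10 FPKM in the other 3, so that its gap to the nearest was 0.892 of the whole range, above Dixon's 95% critical value for 4 samples. Chance flags about 1 in 20 groups.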

How the results depend on the processing

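Of the recomputed counts of called members, 213 stayed within 1.5 times of the count reported and 12 did not, and no called change of a member turned its direction. Culture 2 against culture 1 in DM3 gave 1 called member with median-of-ratios scaling and 1 with voom in place of 3, and 0 to 4 when 1 library was left out. DM3 against GM in controls gave 3 in place of 6 without control line 1 and 3 without control line 2. The clone comparison gave 0 at a filter of 5 FPKM, which removes Ppargc1a. tKO against control in DM3 gave 1 without tKO clone 1, and 0 to 1 when 1 library was left out (1 without clone 1 culture 1). Whether culture numbers pair control with tKO libraries was checked by the correlation of their deviations from group means. In GM all pairs with the same culture number were positive, 0.147 to 0.403 with the same line number and 0.0955 to 0.452 with different line numbers, against means of -0.271 and -0.228 with different culture numbers. In DM3 they ranged from -0.224 to 0.558 and from -0.00999 to 0.445 (means 0.0956 and 0.278). Libraries of the same culture number thus shared part of their deviations in GM, while in DM3 this was mixed. Deviations within a group cancel out, so the negative means with different numbers are not separate evidence. The labels state no pairing, and the main fit therefore had no block for culture. In GM 0 members were called between genotypes in all 31 alternatives, which include blocks for culture. A replicate block for culture gave differentiation counts of 6 in controls and 6 in tKO, and a block for line and culture gave 7 and 7. Ppargc1a lost its tKO call under the first block and gained a control call under the second. Depth limits the statements on Ppargc1a, at 25 fragments in its lowest library.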

Other observations

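Mitophagy genes act in the removal of damaged mitochondria. Of 11 tested, 4 rose and 4 fell over differentiation in controls, where 23.2% of all genes were called higher and 38.3% lower. In tKO 6 rose and 2 fell, where 24.9% were called higher and 36.0% lower. The control count is near the background. Pink1, the kinase that labels depolarised mitochondria, went from 12.1 ± 0.927 to 51.6 ± 10.03 FPKM in controls (log2 change 1.99, limma adjusted p = 1.61e-08) and rose by 2.27 in tKO. Ulk1, which starts autophagy, rose by 0.83 in controls and 1.09 in tKO, while Tbk1 fell by 0.80 and by 0.86. Between genotypes 1 of the 11 was called in DM3, where 3.38% of all tested genes were. It was the receptor Bnip3l, at 31.7 ± 3.37 FPKM in control and 51.8 ± 8.87 in tKO (0.68, adjusted p = 0.0359).

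Of 10 genes of the crista organising complex, 2 rose and 4 fell in controls, and 1 rose and 3 fell in tKO, whereas with median-of-ratios scaling 5 rose and 3 fell in controls, and 4 rose and 3 fell in tKO. Samm50, a core of the outer membrane sorting machinery, fell by 0.64 and by 0.62, and Dnajc11 by 1.18 and by 1.24. Of the 13 protein genes of the mitochondrial genome, 1 rose and 8 fell in controls, and 1 rose and 3 fell in tKO. With median-of-ratios scaling 2 rose and 8 fell in controls, and 2 rose and 2 fell in tKO. Of these 13, 0 were called between genotypes in DM3 and 0 in the genotype by stage term. Their median difference, tKO minus control, was nevertheless 0.79 in DM3, beside 0.008 over all tested genes. In the genotype by stage term the median was 0.62, beside 0.03. The absence of calls thus does not show equal levels. mt-Co1 rose by 0.87 in controls and 0.84 in tKO. In controls mt-Nd1 fell by 2.04, from 4428 ± 564 FPKM to a widely spread 1206 ± 770. In DM3, 8 of the 13 were called higher in culture 2 than in culture 1, where 9.06% of all tested genes were. Their median difference between cultures was 0.90, beside 0.09 over all tested genes. The part of culture in the changes above was not tested. The mitochondrial messages were read from poly(A) libraries.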
